A study of Mus musculus with 10 samples.

Results

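The genes described here are 43 genes of mitosis, chosen by name for their known part in cell division. No measured value entered the rule, though it was set with earlier results of these data known. They cover cyclins, mitotic kinases, the chromosomal passenger complex, centromere and checkpoint proteins, anaphase regulators, condensin, spindle motors, spindle assembly factors and the machinery of cytokinesis. Each gene was read from the probe set annotated to it alone, and where it had several, from the one with the highest mean over all arrays. All 43 were measured, out of 18193 genes on the array with such a probe set.

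RNA came from the distal colon of 10 C57BL/6 mice of the genotype Rag1-/-, with 1 Affymetrix mouse array per animal. All mice lacked T and B cells of their own and all received T cells at 10 weeks of age, so that the control group is a treated group too. The 4 control mice were given regulatory T cells (Treg) and their colons are labelled non-inflamed. The 6 inflamed mice were given naïve T cells, which cause colitis in this T-cell transfer (TCT) model, and their colons are labelled severely inflamed in 3 and moderately inflamed in 3. Colons were taken 2 to 3 months later, at an age of 4 to 5 months by the labels. No Rag1-/- mouse without transferred cells is among the arrays analysed here, and any T cell in these colons, control or inflamed, is of donor origin or its progeny.

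Mitosis parts the duplicated chromosomes between daughter cells. Cyclin-dependent kinase 1 with its cyclins starts it, condensin and topoisomerase fold and untangle the chromosomes, and motors and microtubule binders build the spindle that attaches to the kinetochores. The spindle checkpoint holds back the anaphase-promoting complex, a ubiquitin ligase, until every chromosome is attached. Separase then cuts cohesin and the cell divides at the central spindle. Most of these transcripts accumulate late in the cell cycle and are low in resting cells. In the colon, dividing cells lie in the lower crypt, and activated lymphocytes divide as well.

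Many mitotic promoters share a short element near the start of transcription, the cell cycle genes homology region (CHR). It is bound by the MuvB core of the DREAM complex, which represses in resting cells, and by MuvB together with B-Myb and Foxm1 in dividing cells. The factor NF-Y binds CCAAT boxes that often lie before it. The elements are shown here, because the members are a group known for this shared layout, for 8 of the 10 roles, each by its member of largest difference among those whose window holds a CHR. The roles left out are those where that difference was smallest, of Hmmr in spindle assembly and Ccnb2 among the cyclins, whose windows hold both elements too. The CHR was searched as TTTGAA or TTCGAA and the NF-Y box as CCAAT, each on both strands, so that they also appear as TTCAAA and ATTGG. Each stretch below runs 5′ to 3′ along the gene from 150 bases before to 50 bases after the RefSeq transcript start, in mouse build GRCm38.p6, with both elements in capitals.
Cdca8 (chr4:124936868-124937067, minus strand): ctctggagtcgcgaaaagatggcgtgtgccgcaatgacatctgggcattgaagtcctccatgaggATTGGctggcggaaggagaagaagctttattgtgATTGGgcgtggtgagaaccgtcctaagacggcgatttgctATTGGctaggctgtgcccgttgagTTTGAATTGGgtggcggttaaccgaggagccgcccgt
Plk1 (chr7:122159285-122159484, plus strand): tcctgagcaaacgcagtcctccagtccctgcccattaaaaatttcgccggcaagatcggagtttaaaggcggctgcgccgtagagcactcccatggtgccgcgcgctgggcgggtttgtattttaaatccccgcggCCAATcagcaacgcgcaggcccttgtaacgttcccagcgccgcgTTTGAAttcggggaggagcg
Cdc20 (chr4:118437294-118437493, minus strand): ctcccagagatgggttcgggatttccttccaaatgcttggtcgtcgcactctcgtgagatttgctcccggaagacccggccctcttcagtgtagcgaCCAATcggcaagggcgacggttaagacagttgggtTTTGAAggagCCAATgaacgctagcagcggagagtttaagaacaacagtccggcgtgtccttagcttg
Bub1 (chr2:127831810-127832009, minus strand): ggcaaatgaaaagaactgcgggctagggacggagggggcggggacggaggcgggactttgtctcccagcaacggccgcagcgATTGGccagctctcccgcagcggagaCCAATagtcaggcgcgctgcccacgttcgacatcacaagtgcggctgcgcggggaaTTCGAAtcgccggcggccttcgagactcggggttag
Top2a (chr11:99024140-99024339, minus strand): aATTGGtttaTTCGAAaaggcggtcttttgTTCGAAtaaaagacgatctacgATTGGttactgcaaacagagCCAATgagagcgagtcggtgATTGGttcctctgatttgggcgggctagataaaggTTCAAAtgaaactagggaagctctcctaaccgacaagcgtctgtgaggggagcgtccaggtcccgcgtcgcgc
Cenpa (chr5:30666736-30666935, plus strand): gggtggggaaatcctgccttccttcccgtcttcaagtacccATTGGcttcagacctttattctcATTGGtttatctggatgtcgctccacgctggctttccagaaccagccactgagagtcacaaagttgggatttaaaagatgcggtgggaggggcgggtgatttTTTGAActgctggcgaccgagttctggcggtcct
Kif23 (chr9:61946750-61946949, minus strand): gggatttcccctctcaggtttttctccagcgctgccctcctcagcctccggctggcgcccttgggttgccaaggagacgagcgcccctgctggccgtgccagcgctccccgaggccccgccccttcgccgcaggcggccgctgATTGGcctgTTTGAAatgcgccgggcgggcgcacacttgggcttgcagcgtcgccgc
Kif2c (chr4:117178723-117178922, minus strand): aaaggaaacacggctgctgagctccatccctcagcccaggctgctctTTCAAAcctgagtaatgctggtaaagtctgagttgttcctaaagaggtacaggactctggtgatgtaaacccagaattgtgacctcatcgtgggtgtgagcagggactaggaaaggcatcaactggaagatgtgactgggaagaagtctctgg

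In the Cdca8 stretch the CHR and the last NF-Y box overlap by 1 base. The Top2a stretch holds 3 CHRs and 4 NF-Y boxes, while that of Kif2c holds a CHR and no NF-Y box. RefSeq windows from 250 bases before to 50 after the start were found for 37 of the 43 members. The other 6 are Tpx2, Kif20a, Ccna2, Aurkb, Dlgap5 and Smc4. A CHR stood in 31 of the 37 windows (83.8%), against 15.0% of the windows of the 14452 tested genes that have one and 19.4% of all 27025 windows. An NF-Y box stood in 31 (83.8%), against 38.2% of the windows of tested genes, and both elements in 29 (78.4%), against 6.13%. The CHR lay within 50 bases of the start in 28 members, a window chosen after the positions were seen, against 3.79% of tested genes. In the 29 members with an NF-Y box before the CHR nearest the start, a median of 29 bases separated them.

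The CHR was found among members with and without a called difference. It stood in 25 of the 29 members with a window that were higher in inflamed colon by the test below and in 6 of the 7 that did not pass it. Members with a CHR had a median log2 difference of 0.61, from 0.058 to 1.30, and the 6 without a CHR (Birc5, Cenpe, Mad2l1, Nek2, Nusap1 and Pttg1) had a median of 0.71, from -0.53 to 1.10. Among the 2658 other genes with a window that were higher in inflamed colon, 14.8% held a CHR, close to the 15.0% of all tested genes. These matches describe letters in a fixed window and are not evidence that a factor was bound in these colons.

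**Figure D1:**
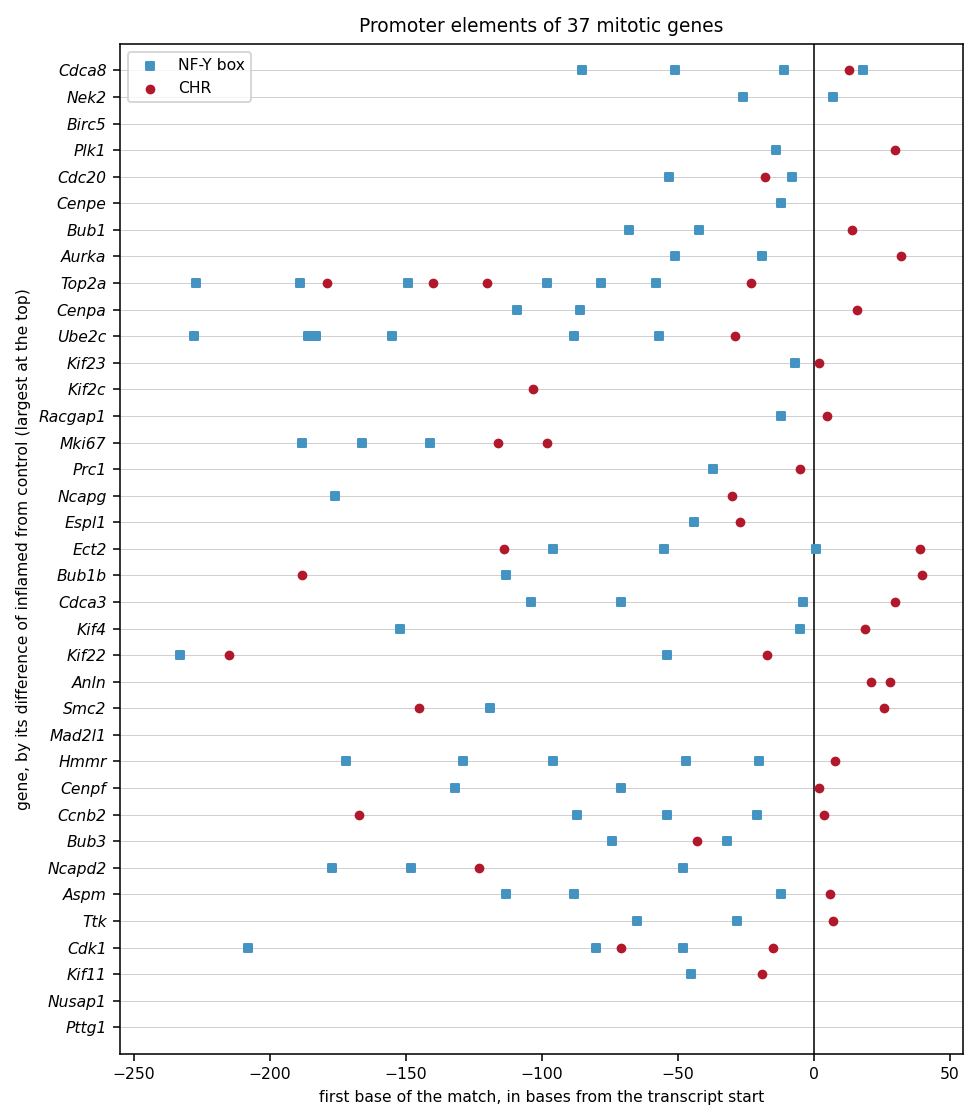
CHR (red circles) and NF-Y boxes (blue squares) in the promoter windows of 37 mitotic genes, by the distance of their first base from the transcript start in bases (x axis), with genes ordered by their log2 difference of inflamed from control (y axis, largest at the top). The CHR lies within 50 bases of the start in 28 of the genes, and the 6 without it include both the next-to-top gene, Nek2, and the bottom gene, Pttg1.

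Most members were higher in inflamed colon. At an adjusted p under 0.05 (limma, two-sided, Benjamini-Hochberg over all 18193 genes), 32 of 43 rose, 1 fell (Pttg1) and 10 did not pass. Over all genes tested 18.5% were called higher, 21.2% lower and 39.7% either way. The members' median log2 difference of inflamed minus control was 0.60, against 0.031 for all genes. Differences were above 0 in 42 of 43 members, and in 10020 of all 18193 genes. The rises were small to moderate: called rises ran from 0.35 for Bub3 to 1.30 for Cdca8 on the log2 scale, and those of Cdca8, Nek2 and Birc5 reached 2-fold. In 25 members every inflamed colon lay above every control colon, and in 1, Pttg1, every one lay below, where 14.6% of all genes were separated upward and 17.1% downward. In bulk tissue, more cells of a type and more RNA per cell cannot be told apart.

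**Figure D2:**
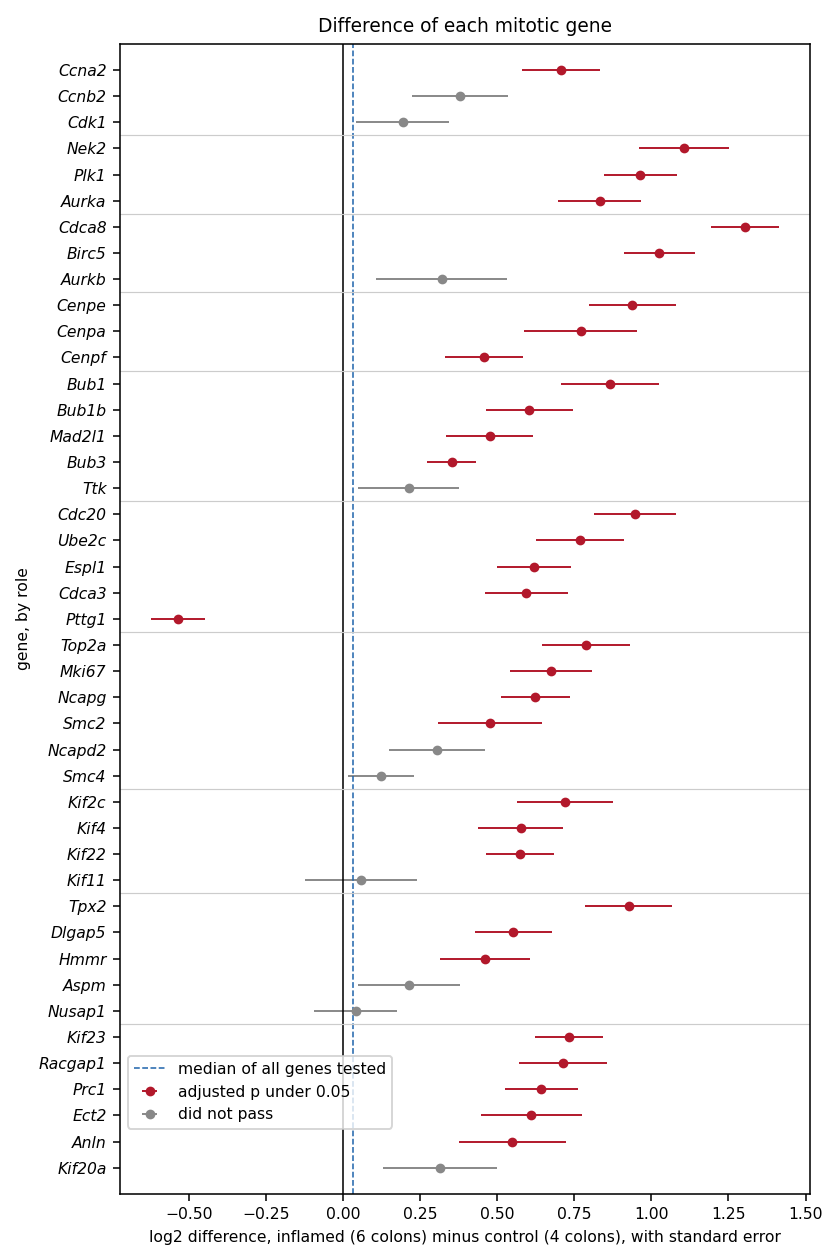
For each of the 43 genes, the difference in log2 value between the 6 inflamed and the 4 control colons (x axis, bars are SE), grouped by role and separated by grey lines, with genes past an adjusted p of 0.05 in red and the others in grey. The difference of 42 genes is above 0, from 0.041 for Nusap1 to 1.30 for Cdca8, that of Pttg1 is -0.53, and the dashed line marks the median of all genes tested at 0.031.

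Values below are log2 expression per colon, listed in the order of replicates 1 to 4 (control) or 1 to 3 (severe and moderate), and differences are inflamed minus control on that scale. Of the cyclins and their kinase, 1 of 3 rose. Ccna2, the cyclin A of S phase and mitosis, read 10.08, 9.71, 9.61 and 9.91 in the control colons, 10.62, 10.51 and 10.53 in the severe colons and 10.82, 10.14 and 10.60 in the moderate colons (log2 difference 0.71, SE 0.13, 1.63-fold, adjusted p = 0.000943). Every inflamed colon was above the controls. Cdk1, the kinase that drives entry into mitosis, read 9.47, 9.21, 9.27 and 9.08 in the control colons, 9.67, 9.22 and 9.31 in the severe colons and 9.72, 9.01 and 9.76 in the moderate colons (log2 difference 0.19, SE 0.15, 95% interval -0.14 to 0.52, adjusted p = 0.342). Moderate replicate 2 was the lowest of all 10 colons for Cdk1, and 3 of the 6 inflamed colons lay below the highest control. Ccnb2, a B-type cyclin that activates Cdk1, read 9.05, 9.08, 8.72 and 9.03 in the control colons, 9.52, 9.02 and 9.37 in the severe colons and 9.53, 8.90 and 9.75 in the moderate colons (log2 difference 0.38, SE 0.16, 95% interval 0.035 to 0.72, adjusted p = 0.0762). Its 2 lowest inflamed colons, severe replicate 2 and moderate replicate 2, lay within the control range. Ccnb2 passed the test without the former (adjusted p = 0.0434) and without the latter (adjusted p = 0.0196). Ccnb1, the other main mitotic B-type cyclin, has no probe set annotated to it alone and was not analysed here.

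All 3 mitotic kinases rose, with no overlap between groups. Nek2, a centrosome kinase that frees the spindle poles from each other, read 8.17, 7.84, 7.85 and 8.36 in the control colons, 9.50, 9.04 and 9.29 in the severe colons and 9.26, 8.76 and 9.11 in the moderate colons (log2 difference 1.10, SE 0.15, 2.15-fold, adjusted p = 0.000116). Its other probe sets, of mean 7.27, 4.26 and 3.71, gave 0.91, 0.0044 and -0.099. Plk1, a kinase of mitotic entry, spindle poles and cytokinesis, read 7.53, 7.47, 7.63 and 7.71 in the control colons, 8.75, 8.34 and 8.66 in the severe colons and 8.70, 8.17 and 8.70 in the moderate colons (log2 difference 0.96, SE 0.12, 1.95-fold, adjusted p = 6.98e-05). The lowest inflamed value of Plk1, in moderate replicate 2, was still 0.46 above the highest control. Aurka, the Aurora kinase of the spindle poles, averaged 7.26 ± 0.17 (SD, n = 4) in control and 8.09 ± 0.27 (n = 6) in inflamed colon (difference 0.83, adjusted p = 0.000471).

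The chromosomal passenger complex, which corrects faulty attachments and later guides cytokinesis, held the largest rise of the 43 and a member that did not pass. Cdca8 (borealin), a targeting subunit, read 8.87, 8.73, 8.54 and 8.95 in the control colons, 10.26, 9.91 and 10.16 in the severe colons and 10.19, 9.80 and 10.14 in the moderate colons (log2 difference 1.30, SE 0.11, 2.47-fold, adjusted p = 7.3e-06). Its groups were the most clearly parted of all members, the lowest inflamed colon standing 0.84 above the highest control, and its other probe sets gave 1.17 and 0.95. Birc5 (survivin), the other targeting subunit here, read 8.75, 8.75, 8.60 and 8.77 in the control colons, 9.91, 9.58 and 9.88 in the severe colons and 9.74, 9.37 and 9.99 in the moderate colons (log2 difference 1.03, SE 0.11, 2.04-fold, adjusted p = 3.79e-05). Aurkb, the kinase of the complex, read 7.41, 7.63, 7.54 and 7.43 in the control colons, 8.06, 7.39 and 7.61 in the severe colons and 8.18, 7.24 and 8.45 in the moderate colons (log2 difference 0.32, SE 0.21, 95% interval -0.14 to 0.78, adjusted p = 0.259). For Aurkb, severe replicates 2 and 3 and moderate replicate 2 lay at or below the highest control, and the other 3 inflamed colons lay above it. Incenp, the scaffold of the complex, comes from the wider spindle list and rose by 1.07 ± 0.08 (SE, adjusted p = 4.69e-06). Whether the rise of Cdca8 and Birc5 differed from that of Aurkb was not tested.

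**Figure D3:**
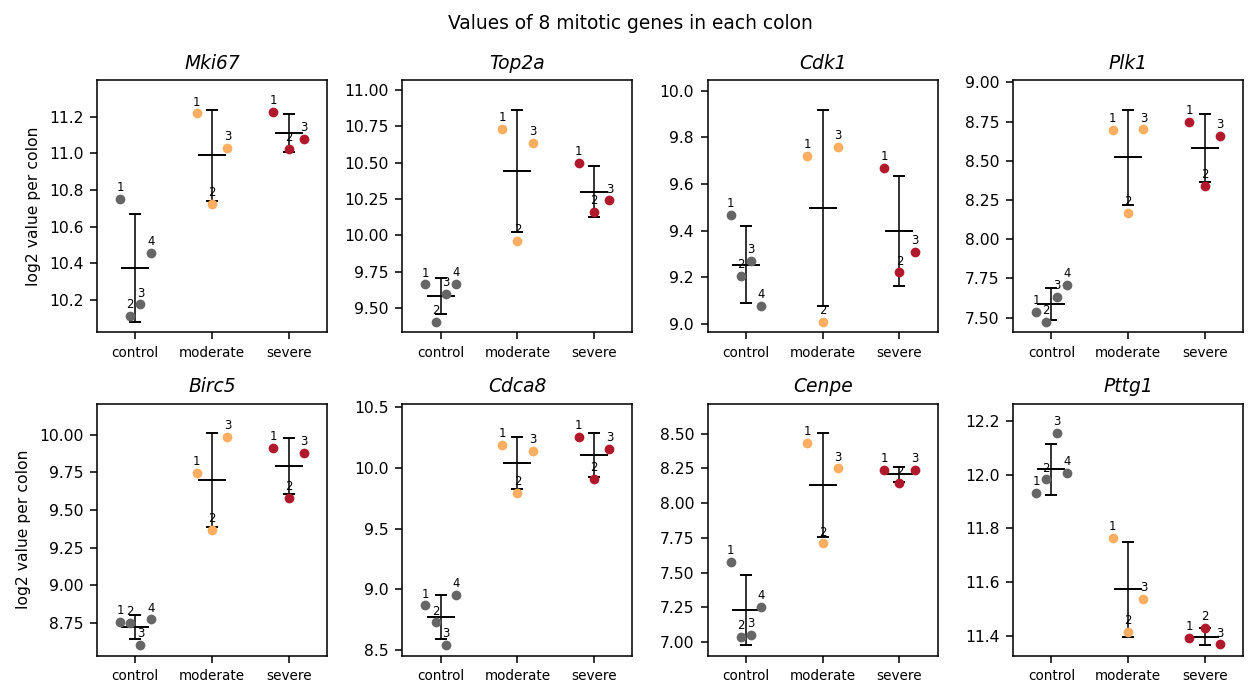
Log2 value of 8 mitotic genes in each colon (points, numbered by replicate) for control (grey, n = 4), moderate (orange, n = 3) and severe (red, n = 3) colons, with mean and SD as bars and a separate y axis per gene. Cdca8, Birc5, Plk1, Cenpe and Top2a show every inflamed colon above the controls, Mki67 overlaps at moderate replicate 2, Cdk1 overlaps widely and Pttg1 shows every inflamed colon below.

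All 3 centromere and kinetochore members rose. Cenpe, a motor that brings chromosomes to the spindle equator, read 7.58, 7.04, 7.05 and 7.26 in the control colons, 8.24, 8.15 and 8.24 in the severe colons and 8.43, 7.71 and 8.25 in the moderate colons (log2 difference 0.94, SE 0.14, 1.92-fold, adjusted p = 0.000283). The severe colons spanned only 0.09 for Cenpe and the moderate ones 0.72. Cenpa, the histone variant that marks centromeres, averaged 8.45 ± 0.36 in control and 9.22 ± 0.31 in inflamed colon (0.77, adjusted p = 0.00552). Cenpf, a protein of the outer kinetochore, averaged 7.97 ± 0.27 and 8.42 ± 0.18 (0.46, adjusted p = 0.0132), with 2 inflamed colons below the highest control. The mean over its probe sets gave 0.17 and did not pass (adjusted p = 0.0765).

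Of the 5 spindle checkpoint members, 4 rose. Bub1, a checkpoint kinase at kinetochores, read 7.99, 7.53, 7.47 and 7.50 in the control colons, 8.68, 8.30 and 8.40 in the severe colons and 8.78, 8.03 and 8.74 in the moderate colons (log2 difference 0.87, SE 0.16, 1.82-fold, adjusted p = 0.00105). Moderate replicate 2 lay only 0.037 above control replicate 1 for this gene, so that the groups nearly met. Bub1b (BubR1) rose by 0.60 (adjusted p = 0.00513) and Mad2l1 (Mad2) by 0.48 (adjusted p = 0.0182), both inhibitors of Cdc20. Mad2l1 did not pass without control replicate 2 (adjusted p = 0.0553) or 3 (adjusted p = 0.0643). With probe sets that may match several transcripts (suffix _s, _x or _a) left out, Bub1b gave 0.26 and did not pass (adjusted p = 0.0873). Bub3, which carries Bub1 and BubR1 to kinetochores, rose least of all called members, by 0.35 ± 0.080 (SE, adjusted p = 0.00401), and the brightest probe set left by that restriction gave 0.054 (adjusted p = 0.71). Ttk (Mps1), the kinase that sets off the checkpoint, read 7.23, 6.79, 6.76 and 6.78 in the control colons, 7.14, 6.90 and 6.99 in the severe colons and 7.38, 6.67 and 7.53 in the moderate colons (log2 difference 0.21, SE 0.16, 95% interval -0.14 to 0.57, adjusted p = 0.331). For Ttk, 4 of 6 inflamed colons lay below control replicate 1.

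Anaphase regulators held the single fall. Cdc20, the activator of the anaphase-promoting complex, read 10.06, 9.73, 9.41 and 9.96 in the control colons, 10.95, 10.62 and 10.80 in the severe colons and 10.77, 10.43 and 10.87 in the moderate colons (log2 difference 0.95, SE 0.13, 1.93-fold, adjusted p = 0.000173). The other probe sets of Cdc20, of mean 8.67 and 7.10, gave smaller rises of 0.54 and 0.51. Ube2c, a ubiquitin-conjugating enzyme of the same complex, rose by 0.77 (adjusted p = 0.00121), Espl1 (separase), the protease that cuts cohesin, by 0.62 (adjusted p = 0.00149), and Cdca3, a protein of mitotic entry, by 0.59 (adjusted p = 0.00391). Every inflamed colon was above the controls for each of these 4 genes. The only probe set of Cdca3 left by that restriction gave 0.12 (adjusted p = 0.178), but its mean of 3.0 lay below the lower quartiles of the arrays, so that it says nothing of Cdca3. Pttg1 (securin), which holds separase inactive until anaphase, read 11.93, 11.98, 12.16 and 12.01 in the control colons, 11.39, 11.43 and 11.37 in the severe colons and 11.77, 11.42 and 11.54 in the moderate colons. It fell by 0.53 ± 0.087 (SE, 95% interval -0.73 to -0.34, adjusted p = 0.00048), a 1.45-fold drop. All 6 inflamed colons were below all 4 controls, and its other 2 probe sets were lower too, at -0.89 and -0.76 on the log2 scale. The securin transcript moved against Espl1, the transcript of its partner, in the same colons.

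Of the 6 members of chromosome structure and condensin, 4 rose. Top2a, the topoisomerase that untangles sister chromatids, read 9.66, 9.41, 9.60 and 9.67 in the control colons, 10.50, 10.16 and 10.24 in the severe colons and 10.73, 9.96 and 10.64 in the moderate colons (log2 difference 0.79, SE 0.14, 1.73-fold, adjusted p = 0.000958). Mki67, which coats mitotic chromosomes and is widely used as a proliferation marker, read 10.75, 10.11, 10.18 and 10.46 in the control colons, 11.22, 11.03 and 11.08 in the severe colons and 11.22, 10.72 and 11.03 in the moderate colons (log2 difference 0.68, SE 0.13, 1.60-fold, adjusted p = 0.00176). Control replicate 1 stood 0.295 above the next control for Mki67 and just above moderate replicate 2, so the groups overlapped by 1 colon. Among condensin subunits, Ncapg rose by 0.62 ± 0.11 (adjusted p = 0.000924) and Smc2 by 0.48 ± 0.17 (adjusted p = 0.0404). Smc2 did not pass when any 1 of control replicates 2, 3 and 4, severe replicate 1 and moderate replicates 1 and 3 was left out (adjusted p = 0.0714 to 0.108). Ncapd2, another regulatory subunit, read 6.82, 6.93, 6.98 and 7.04 in the control colons, 7.44, 6.88 and 7.28 in the severe colons and 7.55, 6.78 and 7.55 in the moderate colons (log2 difference 0.30, SE 0.16, 95% interval -0.037 to 0.64, adjusted p = 0.146). It passed without moderate replicate 2 (adjusted p = 0.0356). Smc4, the ATPase partner of Smc2, read 10.34, 10.07, 10.08 and 9.99 in the control colons, 10.36, 10.16 and 10.20 in the severe colons and 10.47, 9.94 and 10.33 in the moderate colons (log2 difference 0.12, SE 0.11, 95% interval -0.11 to 0.36, adjusted p = 0.396). For Smc4, 4 inflamed colons lay below the highest control, while its other probe sets gave 0.52 and 0.30.

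Of 4 spindle motors, 3 rose. Kif2c (MCAK), which takes apart microtubule ends at kinetochores, read 7.58, 7.17, 6.87 and 7.46 in the control colons, 8.21, 7.69 and 8.19 in the severe colons and 8.13, 7.68 and 8.04 in the moderate colons (log2 difference 0.72, SE 0.16, 1.65-fold, adjusted p = 0.00303). Kif4 and Kif22, motors on chromosome arms, rose by 0.58 (adjusted p = 0.00595) and 0.57 (adjusted p = 0.00135). All 3 had every inflamed colon above the controls. The restricted probe sets gave 0.29 for Kif2c, which did not pass (adjusted p = 0.176). Kif11 (Eg5), which pushes the spindle poles apart, read 7.84, 7.62, 7.59 and 7.54 in the control colons, 7.87, 7.34 and 7.52 in the severe colons and 8.0, 7.24 and 8.26 in the moderate colons (log2 difference 0.058, SE 0.18, 95% interval -0.34 to 0.46, adjusted p = 0.832). Its inflamed colons spanned the whole control range and beyond on both sides. Of its other probe sets, 1 gave 0.14 and 1, of lower signal, gave 0.70, so that the reading of Kif11 depended on the probe set.

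Of 5 spindle assembly members, 3 rose. Tpx2, which activates Aurora A and starts microtubules near chromosomes, read 7.0, 6.97, 6.70 and 6.92 in the control colons, 8.04, 7.56 and 7.85 in the severe colons and 8.03, 7.37 and 8.08 in the moderate colons (log2 difference 0.93, SE 0.14, 1.90-fold, adjusted p = 0.000319). The other probe sets of Tpx2, of mean 6.47, 5.23 and 5.18, gave 0.45, 0.13 and 0.17. Dlgap5 (HURP) rose by 0.55 (adjusted p = 0.00405) and Hmmr by 0.46 (adjusted p = 0.0248), both microtubule binders of the spindle. Hmmr did not pass without control replicate 2 (adjusted p = 0.071) or 3 (adjusted p = 0.0882), and averaging its probe sets gave 0.27 (adjusted p = 0.165). Aspm, a protein of the spindle poles, read 8.20, 7.53, 7.33 and 7.79 in the control colons, 8.02, 7.69 and 7.82 in the severe colons and 8.20, 7.67 and 8.16 in the moderate colons (log2 difference 0.21, SE 0.17, 95% interval -0.15 to 0.58, adjusted p = 0.336). For Aspm control replicate 1 was above all 6 inflamed colons. Nusap1, a microtubule binder of the spindle, read 9.03, 8.74, 8.56 and 8.76 in the control colons, 8.91, 8.62 and 8.64 in the severe colons and 9.17, 8.54 and 9.0 in the moderate colons (log2 difference 0.041, SE 0.13, 95% interval -0.25 to 0.34, adjusted p = 0.839). For Nusap1, 5 of 6 inflamed colons lay below the highest control.

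Of 6 members of the central spindle and cytokinesis, 5 rose. Kif23 (MKLP1), the motor of centralspindlin, read 8.22, 7.74, 7.87 and 7.88 in the control colons, 8.71, 8.48 and 8.80 in the severe colons and 8.80, 8.43 and 8.76 in the moderate colons (log2 difference 0.73, SE 0.11, 1.66-fold, adjusted p = 0.000272). Its partner Racgap1 rose by 0.71 (adjusted p = 0.00188), Prc1, which bundles the central microtubules, by 0.64 (adjusted p = 0.00115), Ect2, the activator of RhoA at the cleavage plane, by 0.61 (adjusted p = 0.0108), and Anln (anillin), a scaffold of the contractile ring, by 0.55 (adjusted p = 0.0256). Anln did not pass when control replicate 2, 3 or 4 was left out (adjusted p = 0.0509 to 0.081). Kif20a (MKLP2), which carries the passenger complex to the central spindle, read 6.57, 6.52, 6.06 and 6.52 in the control colons, 6.93, 6.39 and 6.68 in the severe colons and 6.91, 6.24 and 7.24 in the moderate colons (log2 difference 0.31, SE 0.18, 95% interval -0.089 to 0.72, adjusted p = 0.203). Its severe replicate 2 and moderate replicate 2 lay within the control range.

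**Figure D4:**
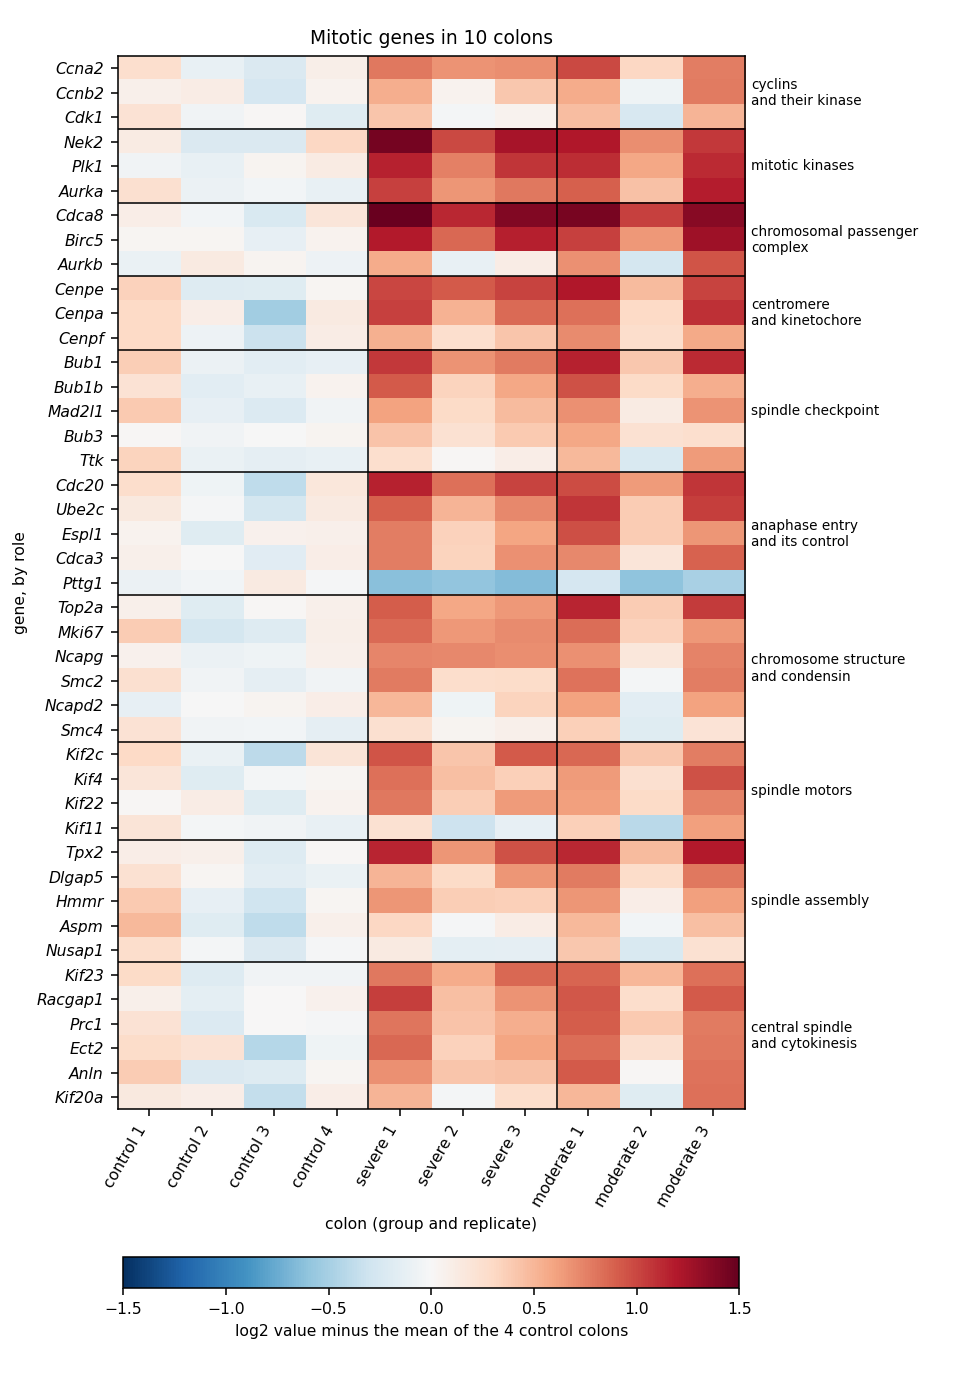
Log2 value minus the mean of the 4 control colons (colour, red above and blue below) for the 43 genes (rows, by role) in each of the 10 colons (columns, by group and replicate). Moderate replicate 2 is the palest inflamed column and the lowest of the 6 in 40 genes, control replicate 1 is the highest control in 29, and Pttg1 is blue across the inflamed colons.

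Colons of a group differed from each other in a way shared by most members. Moderate replicate 2 was the lowest inflamed colon in 40 of 43 members, against 18.1% of all genes, and control replicate 1 was the highest control in 29, against 26.3%. The median over members of the value minus the control mean was 0.22, -0.08, -0.16 and 0.05 in the control colons, 0.79, 0.37 and 0.59 in the severe colons and 0.83, 0.27 and 0.78 in the moderate colons. Without both of these colons, a comparison chosen after seeing the data, 36 members rose and 1 fell, where 33.7% of all genes were called either way. Without moderate replicate 2 alone 35 members passed in either direction, against 38.6% of all genes. The moderate replicate 2 colon had a mean over the 24 DNA replication genes of 8.14, the lowest of the inflamed colons (8.14 to 8.81). That mean lay within the control range of 8.14 to 8.47. Among the controls the replication mean did not follow the members. Control replicate 3, the lowest control in 22 members, had the highest, 8.47, and control replicate 1 had 8.14. Moderate replicate 2 had a T cell marker mean of 6.12, within the inflamed range of 5.96 to 6.93, and the lowest macrophage marker mean of the inflamed colons (8.86, others 9.07 to 10.29). It had the highest neutrophil marker mean of the moderate colons (8.44, others 6.86 and 7.35). It also had the highest distal colon epithelial marker mean of the inflamed colons (12.90). Its pan-epithelial marker mean of 12.56 lay within 12.47 to 12.59. The part of these differences in the members' spread was not tested.

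The severe and the moderate colons were each compared with the same 4 controls, so the comparisons are not independent. In severe colons 27 members rose and 1 fell (all genes: 16.1% higher, 18.9% lower, 35% either way), with a median difference of 0.60. In moderate colons 28 rose and 1 fell (all genes: 13.2% higher, 16.7% lower, 29.9% either way), with a median of 0.61. The moderate count rested on single colons, with 19 members past the threshold without moderate replicate 1 (23.4% of all genes) and 40 without moderate replicate 2 (25.4%). The methods' t-test gave 13 members in place of 29, and 21.1% of all genes. Pttg1 was the fall in each, at -0.62 in severe and -0.45 in moderate colons. Cdca8 differed from control by 1.34 and 1.27, Nek2 by 1.22 and 0.99, and Kif11 by -0.070 and 0.19.

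No member passed the test of severe against moderate colons. With limma 0 of 43 members and 0% of all genes passed an adjusted p of 0.05, 0 members had an unadjusted p under 0.05 (922 of all genes did), and the methods' t-test also gave 0. The differences of severe minus moderate ran from -0.27 for Aurkb (95% interval -0.86 to 0.32) to 0.23 for Nek2 (-0.16 to 0.63), with a median of -0.023, and 17 of 43 were above 0 (48.6% of all genes). The smallest unadjusted p was 0.114, for Pttg1 (-0.18, interval -0.40 to 0.050). Over the 43 members the intervals reached from -0.86 to 0.63, so that differences of the size of the rises above lie within the widest of them. Without moderate replicate 2, 0 members passed and 9 had an unadjusted p under 0.05 (7.22% of all genes), with a median difference of -0.22. Without control replicate 1 as well, 0 passed and 12 had an unadjusted p under 0.05 (7.21% of all genes), with the same median.

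Other probe sets of the same genes were read beside the ones used. The 43 members have 106 probe sets, 11 members having only 1. Of the 63 not used, 53 had a mean at or above the lower quartile of the arrays, and 48 of these were higher and 5 lower in inflamed colon, with a median difference of 0.29 against 0.59 for the probe sets used of the same genes. In 26 of the 32 members with several probe sets all had the same sign. All 43 probe sets used had means above the array medians, from 6.46 for Espl1 to 11.70 for Pttg1.

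**Figure D5:**
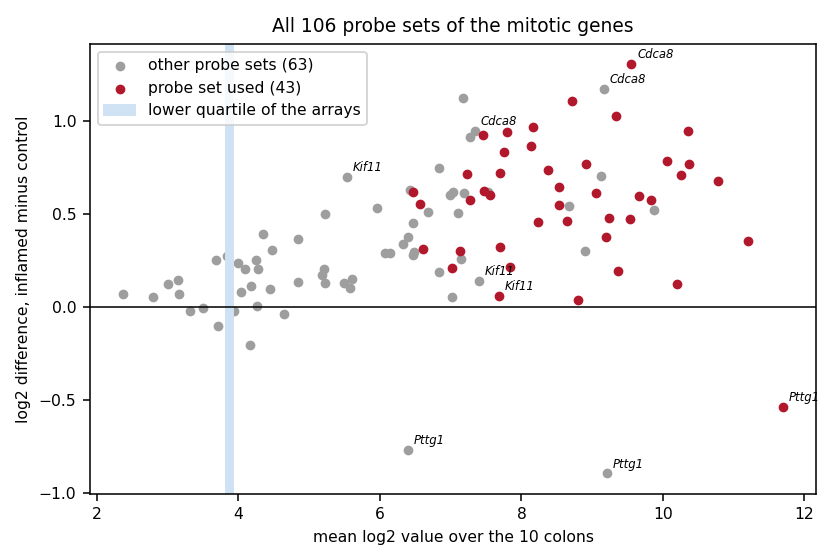
Difference in log2 value, inflamed minus control (y axis), against the mean log2 value over the 10 colons (x axis) for all 106 probe sets of the 43 genes, with the 43 used in red, the other 63 in grey and the range of the arrays' lower quartiles shaded. The 3 probe sets of Pttg1 are the lowest points, the 3 of Cdca8 are all near or above 1, and those of Kif11 range from 0.06 to 0.70.

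Genes of the same processes outside the 43 were counted from lists of their own, to be read against 18.5% of all genes higher and 21.2% lower, and a median of 0.031. Of 23 other kinetochore and centromere genes, 9 were higher and 1 lower in inflamed colon (median difference 0.26), the largest rises being those of the kinetochore subunits Dsn1 (0.69, adjusted p = 0.000206) and Spc25 (0.66, adjusted p = 0.0252), and the fall that of Cenpk (-0.51, adjusted p = 0.0207). Of 24 other spindle, centrosome and cytokinesis genes, 12 were higher and 0 lower (median 0.34), led by Cep55, a factor of the final cut between daughter cells, at 1.15 (adjusted p = 4.41e-05), and Incenp. Of 16 other genes of mitotic entry and its transcription, 6 were higher and 1 lower (median 0.22). Cks1b, a small partner of cyclin-dependent kinases, rose by 1.39 (2.62-fold) and Mybl2 (B-Myb), a partner of MuvB at the CHR, by 0.92. Foxm1, the other partner, named after its values were seen, did not pass and read -0.16 (adjusted p = 0.27), with all 6 inflamed colons below the highest control. Wee1, the kinase that inhibits Cdk1, fell by 0.56 (adjusted p = 0.00802). Whether these shares differ from that of the 43 was not tested.

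The medians for other genes of the anaphase-promoting complex and for other condensin and cohesin genes lay close to the 0.031 of all genes. Of 15 other genes of the anaphase-promoting complex, 3 were higher and 5 lower (median 0.026). Ube2s, its chain-extending enzyme, rose by 0.60 and the subunit Anapc1 by 0.37, and the subunits Anapc13 and Cdc16 fell by 0.40 and 0.38. Of 16 other condensin and cohesin genes, 5 were higher and 3 lower (median 0.028). Cdca5 (sororin), which keeps cohesin on chromosomes, rose by 0.79 and Sgo2a (shugoshin), which protects it at centromeres, by 0.51, and the cohesin subunit Stag2 and the cohesin regulator Pds5b fell by 0.53 and 0.52.

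Among 24 DNA replication genes, 10 were higher and 2 lower (median 0.25). Rrm2, the ribonucleotide reductase subunit made in S phase, rose by 1.79 (3.47-fold, adjusted p = 5.01e-06) and Fen1, which trims Okazaki fragments, by 0.79. The polymerase alpha subunits Pola1 and Prim1 fell by 0.68 (adjusted p = 0.0277) and 0.62 (adjusted p = 0.00774). Of 12 inhibitors of the cell cycle and genes of quiescence, 1 was higher and 5 lower (median -0.22). Cdkn1a (p21), an inhibitor of cyclin-dependent kinases, rose by 0.50, and the inhibitors Cdkn2b and Cdkn1c fell by 1.34 and 0.96.

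Markers of several cell types differed between control and inflamed colon as well. All 10 T cell markers measured were higher in inflamed colon, with a mean over the list of 4.78 to 4.91 in control and 5.96 to 6.93 in inflamed colons, and in control Cd3g and Cd28 lay below the lower quartile of the arrays. All 7 macrophage and monocyte markers (7.80 to 8.0 in control, 8.86 to 10.29 in inflamed) and all 5 neutrophil markers (4.26 to 5.29 and 6.86 to 9.45) were higher too, as were 4 of 5 of NK cells. B cell and plasma cell markers stayed low, with 1 of 6 higher and list means of 3.97 to 4.16 and 4.10 to 4.30, beside lower quartiles of 3.82 to 3.92. All 7 smooth muscle markers were lower (11.44 to 11.86 and 9.64 to 10.51), as were 5 of 7 of endothelium and 3 of 7 of fibroblasts. Pan-epithelial markers had list means of 12.46 to 12.52 in control and 12.47 to 12.59 in inflamed colons (2 higher and 1 lower of 9), 4 of 7 distal colon epithelial markers were lower and 1, Krt20, higher, and of 7 stem and progenitor markers 5 were lower and 1, Cd44, higher. In the order of replicates, the T cell mean was 6.93, 6.13 and 6.41 in the severe colons and 6.80, 6.12 and 5.96 in the moderate colons. The macrophage and monocyte mean was 10.29, 9.07 and 9.60 (severe) and 9.78, 8.86 and 9.17 (moderate). For neutrophils it was 9.45, 8.19 and 8.84 (severe) and 6.86, 8.44 and 7.35 (moderate). Smooth muscle had 9.93, 9.64 and 9.86 (severe) and 10.51, 9.67 and 10.39 (moderate). Stem and progenitor markers had 7.56, 7.18 and 7.19 (severe) and 7.78, 7.39 and 7.58 (moderate). The median over members, above the control mean, was 0.79, 0.37 and 0.59 in the severe colons and 0.83, 0.27 and 0.78 in the moderate colons. The part of each cell type in the members' rise was not tested.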

How the data were processed

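Per the submitters' processing notes, the authors obtained the deposited log2 values with RMA in Affymetrix Expression Console (versions not stated), which subtracts background, equalizes the arrays' distributions and summarizes probes by median polish. RMA compresses differences of dim probe sets, and neither detection calls nor scan times were used here. Of 45101 probe sets, 34945 are annotated to 1 gene, 932 to several, 9160 to none and 64 are controls. Each of 18193 genes took its probe set of highest mean. Array medians ran from 5.36 to 5.40 and lower quartiles from 3.82 to 3.92, Pearson's r from 0.989 to 0.996 within and 0.962 to 0.983 between control and inflamed, and the 3′ minus 5′ difference from 0.05 to 0.50 for Gapdh and 0.68 to 1.02 for actin. The labels call the samples biological replicates, and precision is limited by how few arrays there are.

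R 4.3.3 and limma 3.58.1 gave the tests (linear model with moderated variance, two-sided, Benjamini-Hochberg over all genes, threshold 0.05), inflamed against control in a model of 2 groups and the other comparisons in a model of 3. The scripts were tested on simulated data. The members and the gene lists were chosen with earlier results of these data known, and 15 listed genes have no probe set of their own. All 43 members are given by role, with values in every colon for Mki67, Top2a, Cdk1, Ccnb2, Plk1, Aurkb, Birc5, the largest difference of each role and members that fell or did not pass, and at most 2 rises and 2 falls per other list. Promoters are from RefSeq (GRCm38.p6). Alternatives were the value per gene, probe sets, dim genes, scaling, variance model, weights, the methods' t-test, the replicate block and leaving out colons. The labels give Trizol for the RNA and the study's methods a Qiagen kit. Figures used matplotlib 3.10.9 in Python 3.11.15.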

Additional observations from a re-analysis of the deposited data

Results flagged for a closer look

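In 7 of 86 groups of values, control and inflamed for each of the 43 members, 1 colon stood far from the rest of its group by Dixon's criterion, which chance meets in about 1 of 20 groups. Control replicate 3 was low for Ccnb2 (8.72, next 9.03), Birc5 (8.60, next 8.75) and Kif20a (6.06, next 6.52). Control replicate 1 was high for Bub1 (7.99, next 7.53) and Ttk (7.23, next 6.79). Control replicate 2 was low for Espl1 (5.90, next 6.14). Moderate replicate 2 was low for Ncapg (7.26, next 7.78) and still above the highest control, 7.17.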

How the results depend on the processing

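Of the 33 members past the threshold for inflamed against control, 24 passed under every one of up to 22 settings and all 33 kept their direction, with 29 passing with any colon left out. Calls were lost for Smc2 in 8 settings, Hmmr and Anln in 5 each, Bub3 and Mad2l1 in 2 each, and Cenpf, Bub1b, Cdca3 and Kif2c in 1 each. Leaving out 1 colon gave 29 to 35 members for inflamed against control, 21 to 32 for severe and 19 to 40 for moderate against control, the last without moderate replicate 1 and without moderate replicate 2, 26 to 32 members without overlap, and 0 for severe against moderate with any colon left out. In these fits 34.5% to 39.8%, 28% to 35.4% and 23.4% to 30.8% of all genes were called for inflamed, severe and moderate against control. Those without overlap made up 32.8% to 35.3% of all genes, and at most 0.11% passed for severe against moderate. With probe sets that may match several transcripts left out (36 members measured), 18 members passed for severe against control in place of 28 (32.5% of all genes in place of 35%). In the same setting 17 did not overlap in place of 26 (29.8% of all genes in place of 31.7%). The methods' t-test, adjusted over all genes, gave 13 for moderate against control in place of 29 (21.1% of all genes). Limma on the same 7 colons gave 29 (29.6%). Both fits share the mean differences and the adjustment, and they differ in the moderated variance of limma. Kif11 changed sign without moderate replicate 1 (-0.0011) and without moderate replicate 3 (-0.053), within -0.053 to 0.15 over colons left out. Nusap1 changed sign with the mean over probe sets (-0.080), without control replicate 3 (-0.031) and without moderate replicate 1 (-0.031). Over colons left out, Nusap1 lay within -0.031 to 0.13. With arrays centred on the median of the genes tested, chosen after seeing the data, 56.4% of all calls were higher in place of 46.7%, and 33 members rose and 1 fell. Correlations of the colons' deviations from their group means ran from -0.078 to 0.29 for same-numbered colons and from -0.31 to 0.17 for others. The highest were 0.29 (severe and moderate replicate 1) and 0.25 (severe and moderate replicate 2). Whether the numbers pair the mice cannot be told from these correlations. A fit with the replicate number as a block gave 33, 31 and 31 members for inflamed, severe and moderate against control (36.4%, 32% and 26.6% of all genes). For severe against moderate it gave 0 (0%). Signal over background of dim probe sets was not measured here.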
